A study of Mus musculus with 3 samples.

Results

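The Krüppel-like factors are zinc finger transcription factors, and 10 of them (Klf2, Klf3, Klf4, Klf5, Klf6, Klf7, Klf9, Klf10, Klf13 and Klf15) were followed in satellite cells, the stem cells that lie along adult muscle fibres. They were chosen by symbol. All 10 have a row among the 20308 genes of the table, which lists 7 further Klf genes. Cells were sorted for the green fluorescent protein ZsGreen from enzyme-treated hindlimb muscle of 3-month-old Pax7-ZsGreen mice. In this strain the reporter follows Pax7, the transcription factor that marks satellite cells, and muscle of several mice of like age was combined. The 3 libraries form 1 group with no other condition. The labels give the tissue as tibialis anterior, while the series text speaks of hindlimb muscles. Values are TPM, the share of each gene among a library's transcripts after allowing for transcript length, so that every library has the same total.

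Krüppel-like factors bind GC-rich and CACCC elements through zinc fingers at their carboxyl end, and their remaining sequence decides the partners they recruit. One subgroup (Klf1, Klf2, Klf4, Klf5, Klf6 and Klf7) is made up mainly of activators that recruit acetyltransferases, a second (Klf3, Klf8 and Klf12) recruits the corepressor CtBP, and another (Klf9, Klf10, Klf11, Klf13, Klf14 and Klf16) recruits the Sin3 corepressor. Several members are immediate-early or hormone-induced genes. In muscle, Klf2 and Klf4 are known from the ERK5 pathway of myoblast fusion, Klf5 from differentiation with MyoD, Klf3 as a partner of serum response factor, and Klf15 from amino acid and lipid use.

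The upstream sequences of the 3 most abundant members and of Klf2 are shown because the family itself binds GC and CACCC boxes, and because Klf2 is a known MEF2 target. The promoter set used, drawn from RefSeq (GRCm38.p6), held a start site for 8 of the 10 members, all except Klf5 and Klf10. Each sequence runs 5′ to 3′ toward the start site, on the strand of the gene, and ends before the first annotated exon. Capitals mark GGGCGG or CACCC on either strand in the sequences of Klf4 (chr4:55532476-55532725, minus strand), Klf6 (chr13:5861239-5861481, plus strand) and Klf9 (chr19:23140976-23141225, plus strand). In the sequence of Klf2 (chr8:72318812-72319032, plus strand), capitals mark the match to the MEF2 site.
Klf4: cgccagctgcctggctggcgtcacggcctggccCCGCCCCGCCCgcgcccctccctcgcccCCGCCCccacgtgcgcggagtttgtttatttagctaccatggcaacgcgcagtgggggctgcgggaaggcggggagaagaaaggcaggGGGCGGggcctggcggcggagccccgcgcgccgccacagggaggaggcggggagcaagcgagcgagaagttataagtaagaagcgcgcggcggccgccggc
Klf6: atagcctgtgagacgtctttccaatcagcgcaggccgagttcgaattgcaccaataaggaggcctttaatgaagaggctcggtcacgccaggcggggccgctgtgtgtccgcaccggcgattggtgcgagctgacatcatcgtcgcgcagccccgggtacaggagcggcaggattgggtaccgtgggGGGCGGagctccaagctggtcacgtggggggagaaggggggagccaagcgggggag
Klf9: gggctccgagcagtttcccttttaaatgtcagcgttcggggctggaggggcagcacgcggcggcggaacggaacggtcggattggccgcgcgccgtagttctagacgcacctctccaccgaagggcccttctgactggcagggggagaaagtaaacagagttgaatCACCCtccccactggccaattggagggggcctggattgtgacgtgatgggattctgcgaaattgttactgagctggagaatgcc
Klf2: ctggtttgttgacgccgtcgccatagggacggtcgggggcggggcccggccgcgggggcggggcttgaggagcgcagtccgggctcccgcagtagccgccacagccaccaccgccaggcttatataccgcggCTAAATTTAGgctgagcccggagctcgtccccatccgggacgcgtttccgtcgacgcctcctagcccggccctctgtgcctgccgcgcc

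Over the 250 bases before the RefSeq start, GGGCGG was found on either strand in 7 of the 8 members and in 32.7% of 32851 mouse promoters. The exception was Klf9. The upstream sequence of Klf4 held 4 matches, which overlap in part, and that of Klf3 held 6. The related box CACCC was found in 6 of 8 members and in 52% of all promoters, with Klf4 and Klf6 the members without it. The members' promoters were rich in G and C, between 59.2% and 78.4% with a median of 71.4%, against a median of 52.4% over all promoters, and the share of GGGCGG at matched GC content was not computed. The MEF2 site was found in Klf2 and in no other of the 8, at 118 bases before the start, and in 2.92% of all promoters. The E-box CANNTG was found in 6 of 8 members and 66.2% of promoters. The motif TGANTCA, a widened form of the AP-1 motif, was found in Klf9 alone among the 8 and in 6.75% of promoters. The match in Klf9 reads TGAATCA. None of the 8 held TGACGTCA (1.55% of promoters), TATAAA (12.4%) or the CArG box (1.47%) in this window. These matches describe letters, and binding was not measured.

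The 10 members were dominated by 3 genes. Klf4 had 534, 690 and 684 TPM in replicates 1, 2 and 3, Klf6 had 419, 492 and 508 TPM, and Klf9 had 224, 158 and 185 TPM. Together they made up 91.5% ± 0.99 (SD, n = 3) of the summed TPM of the 10 members, and this share lay between 90.4% and 92.4% in every library. The 10 members summed to 1417 ± 101.3 TPM (SD, n = 3), which is 0.142% ± 0.010 of all transcripts. Each level was tested against 1, 10 and 100 TPM with limma on log2(TPM + 0.1), with Benjamini-Hochberg adjustment over the 12822 genes above 0 in at least 1 library. Of the 10 members, 9 lay above 1 TPM, against 60.8% of all genes tested, and none lay below it, against 2.18% of genes. Of the 7 further Klf genes, 2 lay above 1 TPM and 4 were listed at 0. The members were chosen with earlier results of these data known, so their counts describe the list and not the whole family. Above 10 TPM lay 4 members, against 38.2% of genes, and none lay below it, against 17.5%. Above 100 TPM lay 3 members, against 9.54% of genes, and below 100 TPM lay the other 7, against 85.1% of genes. The members' median was 16.1 TPM and the median over all genes tested was 11.5 TPM. The labels do not say that the libraries came from separate animals, so p-values speak to the variation among these samples alone, which could be technical. In bulk RNA, fewer cells with a transcript and less transcript per cell cannot be told apart.

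**Figure D1:**
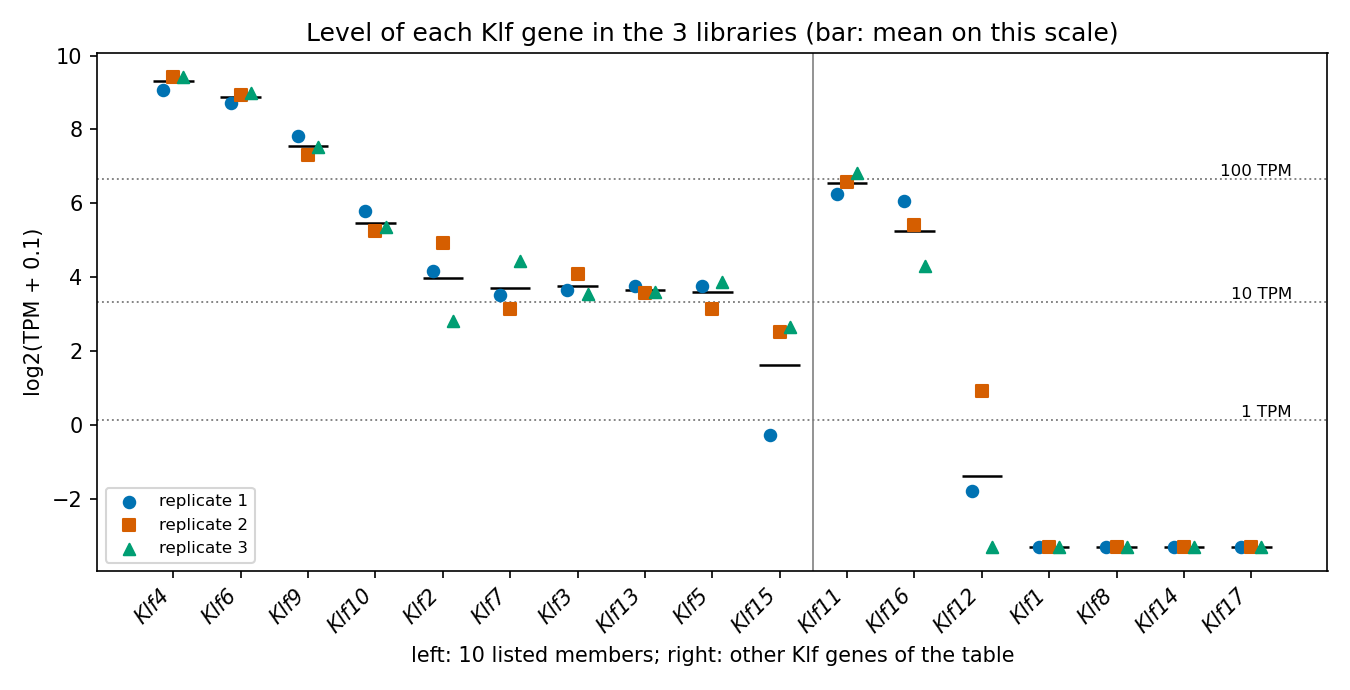
Level of each Klf gene as log2(TPM + 0.1) in the 3 libraries (symbols), with the mean on this scale (bar) and dotted lines at 1, 10 and 100 TPM. Klf4, Klf6 and Klf9 lie above the 100 TPM line in every library, and Klf1, Klf8, Klf14 and Klf17 are listed at 0.

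Klf4 is a zinc finger factor known from epithelial barrier formation, monocytes and reprogramming to pluripotency. Its gene lies on chromosome 4 (55527143 to 55532466, minus strand, GRCm38). At 636 ± 88.5 TPM (SD, n = 3) it ranked 282 among the genes tested, and its level exceeded 100 TPM by 2.66 ± 0.0997 (SE) on the log2(TPM + 0.1) scale (limma adjusted p = 4.1e-08). Replicate 1 was the lowest library, and all 3 lay above every library of Klf6. The genes whose levels over the 3 libraries came closest to Klf4 on the log2 scale were the chaperone Canx (distance 0.118), the cold shock protein Ybx3 (0.186) and the protease inhibitor Cst3 (0.201). This closeness rests on 3 values per gene and reflects similar levels.

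Klf6, an immediate-early factor first known from liver stellate cells and placenta, lies on chromosome 13 (5861482 to 5870394). It averaged 473 ± 47.4 TPM, ranked 371, and exceeded 100 TPM by 2.24 ± 0.0935 (SE, log2 scale, limma adjusted p = 9.3e-08). Klf6 was also lowest in replicate 1. The ratio of Klf4 to Klf6 was narrow: 0.35, 0.49 and 0.43 on the log2 scale in the 3 libraries, a mean of 1.34-fold. Klf4 was the higher in 3 of 3 libraries, and the libraries of these 2 genes did not overlap.

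The other activator-type members were at far lower levels. Klf2, best known from endothelial cells under flow and from resting lymphocytes (chromosome 8, 72319033 to 72321656), had 17.8, 30.3 and 6.87 TPM. Replicate 3 was the lowest, and the SD of 11.7 TPM compares with a mean of 18.3 TPM. Klf2 was above 1 TPM (limma adjusted p = 3.4e-05) and undecided at 10 TPM (limma adjusted p = 0.25). Without replicate 3 it was above 10 TPM (limma adjusted p = 0.0042, with a range from 0.0042 to 0.86 over the alternatives). A call gained by leaving out a library says little, because adjusted p-values could fall sharply in such fits. Klf5, a growth-associated factor of gut epithelium and smooth muscle (chromosome 14, 99298691 to 99315036), had 13.6, 8.68 and 14.5 TPM. Klf7, known from neurons (chromosome 1, 64029447 to 64122282), had 11.4, 8.72 and 21.7 TPM, with replicate 3 the highest. Both lay above 1 TPM (limma adjusted p = 4.5e-05 and 3.9e-05) and were undecided at 10 TPM. Of the 31-base words of the longest Klf7 transcript, 41.2% also occur in transcripts of other annotated genes, chiefly Gm26649, which overlaps Klf7 on the opposite strand. The strand setting of the libraries is not given, so the level of Klf7 is uncertain.

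Among the members that recruit Sin3, Klf9 stood first. It is a glucocorticoid- and thyroid hormone-induced factor on chromosome 19 (23141226 to 23168134). Klf9 averaged 189 ± 33.4 TPM, ranked 835, and exceeded 100 TPM by 0.90 ± 0.122 (SE, log2 scale, limma adjusted p = 0.00025). Replicate 1 was its highest library, whereas the same library was the lowest for Klf4 and Klf6. The ratio of Klf6 to Klf9 was therefore 0.90 on the log2 scale in replicate 1 against 1.64 and 1.45 in replicates 2 and 3. Klf10, the TGF-beta-induced early gene (chromosome 15, 38291463 to 38300706), had 55.4, 38.0 and 41.1 TPM. It lay above 10 TPM by 2.13 ± 0.192 (SE, log2 scale, limma adjusted p = 8.1e-06) and below 100 TPM (limma adjusted p = 0.00047). Like Klf9, Klf10 was highest in replicate 1, and the ratio of Klf9 to Klf10 stayed between 2.02 and 2.17 on the log2 scale. Klf13, a regulator of the chemokine gene Ccl5 in T cells (chromosome 7, 63886351 to 63938915), had 13.4, 11.7 and 12.1 TPM. It had the smallest spread of the 10 members, an SD of 0.098 on the log2 scale.

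Klf3 was the only listed member of the CtBP-recruiting subgroup. It lies on chromosome 5 (64803388 to 64832901) and had 12.4, 16.7 and 11.5 TPM, above 1 TPM (limma adjusted p = 1.6e-05) and undecided at 10 TPM. Of the 31-base words of its longest transcript, 7.74% occur in other genes, chiefly Gm20033 on the opposite strand. For the remaining members this share was at most 2.98%. Klf15, a glucocorticoid-induced metabolic factor of muscle, heart and liver (chromosome 6, 90462576 to 90475238), was the lowest member with 0.72, 5.64 and 6.22 TPM. Its call at 1 TPM was undecided (limma adjusted p = 0.28). The call depended on replicate 1: without it Klf15 was above 1 TPM by 2.45 on the log2 scale (limma adjusted p = 0.016, with a range from 0.016 to 0.68 over the alternatives). Adjusted p-values could fall sharply in fits that left out a library, so this gained call says little.

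**Figure D2:**
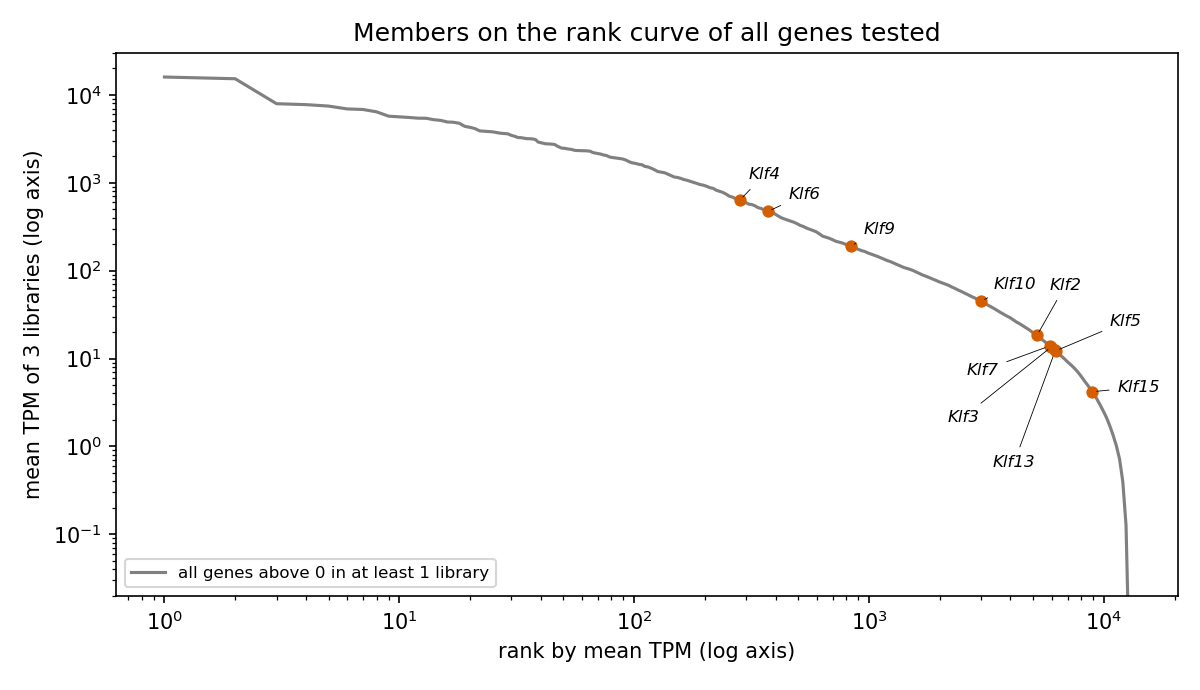
Mean TPM of all genes above 0 in at least 1 library by rank (grey line, both axes logarithmic), with the 10 members as points. Klf4, Klf6 and Klf9 rank 282, 371 and 835, while Klf15 lies near the lower bend of the curve at 4.19 TPM.

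The order of the members was the same in every library at the top and bottom and differed between libraries in the middle. All 45 pairs were compared within libraries, and 35 had ranges that did not overlap and the same order in 3 of 3 libraries. The order ran from Klf4 through Klf6 and Klf9 to Klf10. The 5 members Klf2, Klf7, Klf3, Klf13 and Klf5 followed, with means from 12.3 to 18.3 TPM, and their libraries overlapped in each of the 10 pairs among them. Klf15 lay below all of them. Klf6 exceeded Klf9 by 2.52-fold, Klf9 exceeded Klf10 by 4.22-fold, and Klf10 exceeded Klf2 by 2.84-fold (means of within-library log2 ratios of TPM + 0.1). The ratio of Klf5 to Klf15 was 4.06, 0.61 and 1.21 on the log2 scale. For every ordered pair the exact sign-flip permutation p was 0.25, two-sided, which is the smallest that 3 libraries allow (0.32 after Benjamini-Hochberg adjustment over the 45 pairs).

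**Figure D3:**
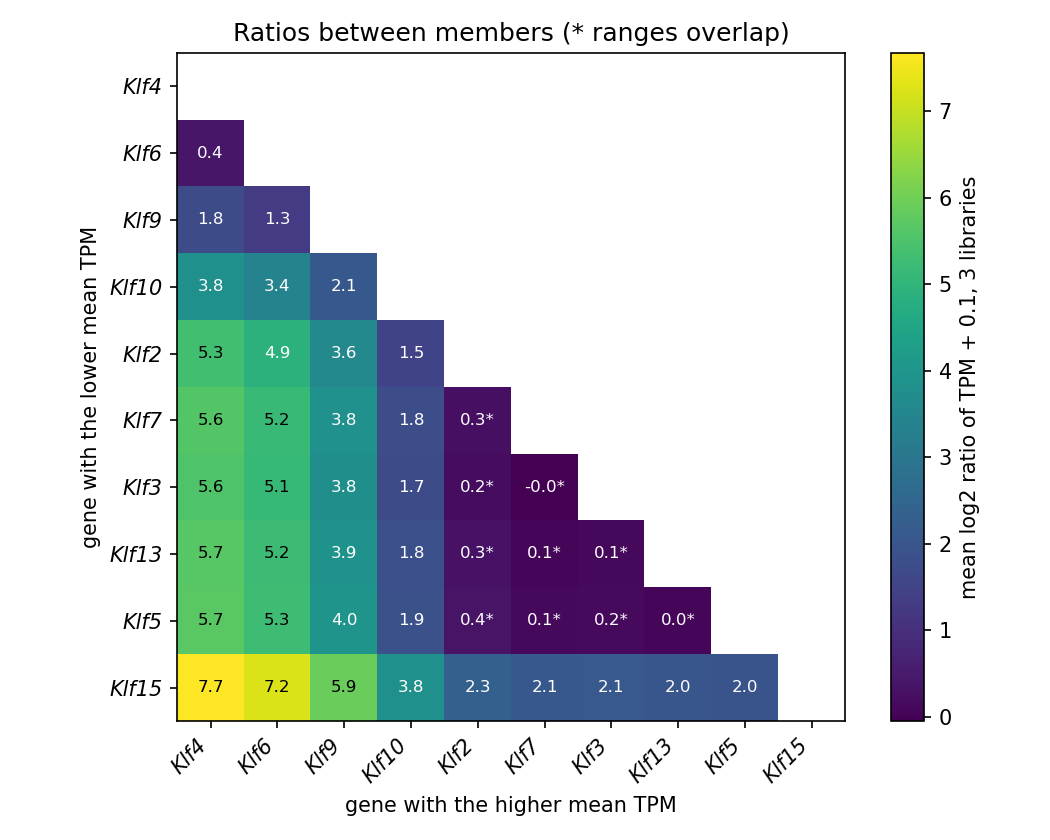
Mean log2 ratio of TPM + 0.1 between each pair of members over 3 libraries, with the gene of higher mean TPM in columns; an asterisk marks pairs whose ranges overlap. The asterisks fall on the 10 pairs among Klf2, Klf7, Klf3, Klf13 and Klf5.

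No member passed the test of its spread between libraries against that of genes at its level, a test that 3 libraries limit in precision. The SD on the log2(TPM + 0.1) scale ran from 0.098 for Klf13 to 1.66 for Klf15, with a median of 0.29 over the members and of 0.60 over the 11318 genes of at least 1 TPM on average. The ratio of a member's variance to limma's trended variance was highest for Klf2 at 2.77 and lowest for Klf13 at 0.018. With limma's variances, 0 of the 10 members passed the F test after Benjamini-Hochberg adjustment and 0 at the unadjusted threshold of 0.05. Over all genes, 0.0177% passed after adjustment and 5.56% at the unadjusted threshold.

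By subgroup, activator-type genes made up most of the family's transcripts. Over all 17 Klf genes, their share was 68.9%, 77.0% and 76.1% in replicates 1, 2 and 3, a mean of 74.0% ± 4.42 (SD, n = 3). Sin3-recruiting genes held 30.2%, 21.5% and 22.8%, and replicate 1 lay apart from the other libraries in both shares. CtBP-recruiting genes held 0.91% ± 0.23, nearly all of it Klf3. Klf4 alone was 44.7% ± 3.29 of the 10 members' sum, Klf6 33.3% ± 0.997, Klf9 13.5% ± 3.34 and Klf10 3.21% ± 0.91.

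**Figure D4:**
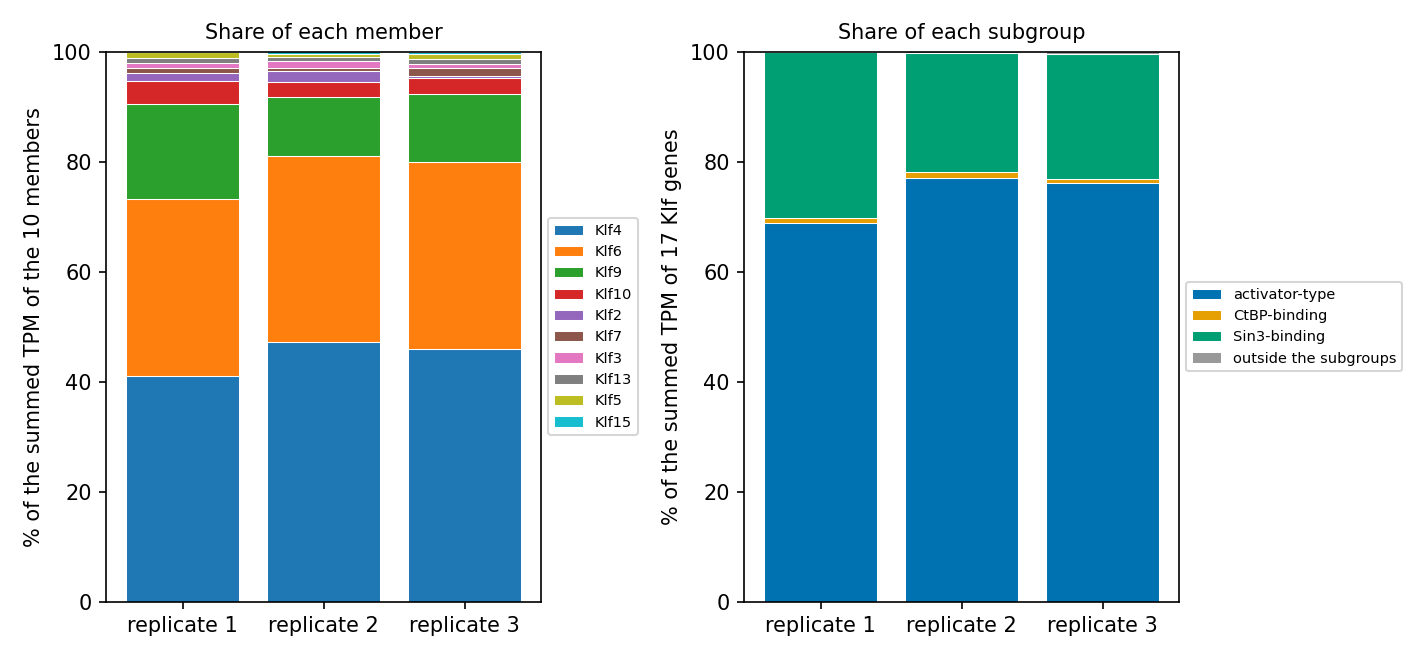
Stacked shares of summed TPM in each library: left, the 10 members as a percent of their own sum; right, the subgroups as a percent of the sum of 17 Klf genes. Klf4 and Klf6 fill most of each left bar, and the activator-type share is lowest in replicate 1 at 68.9%.

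The Klf genes outside the 10 were either well above 10 TPM or near or at 0. Klf11, a close relative of Klf10, had 75.9, 94.4 and 112 TPM, above all libraries of Klf10 and below all of Klf9. Klf16 had 66.6, 42.1 and 19.7 TPM, a range that overlaps that of Klf10. Both lay above 10 TPM with limma, and their means of 94.0 and 42.8 TPM exceeded those of Klf2, Klf3, Klf5, Klf7, Klf13 and Klf15. Klf12 had 0.19, 1.8 and 0 TPM and was undecided at 1 TPM (limma adjusted p = 0.40). Klf1, the erythroid factor, Klf8, Klf14 and Klf17 were listed at 0 in all 3 libraries. Of the 9 related Sp factors, which bind the same GC boxes, Sp1, Sp2, Sp3 and Sp4 were above 1 TPM. Their means were 44.4, 23.7, 79.4 and 18.2 TPM, and the share over all genes tested was 60.8%. Sp5, Sp7 and Sp8 were listed at 0, and Sp6 and Sp9 at 0, 0 and 0.11 TPM and at 0, 0 and 0.09 TPM. Sp3 thus lay between Klf9 and Klf10, and the Sp genes summed to 166 ± 12.9 TPM against 1417 TPM for the 10 members.

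Genes of the partners through which Krüppel-like factors act were read from the same table. All 9 corepressor genes lay above 1 TPM with limma, against 60.8% of all genes tested, with a median of 39.9 TPM against 11.5 TPM. The highest were the deacetylases Hdac2 at 169 ± 15.1 TPM and Hdac1 at 81.7 ± 40.9 TPM and the Sin3 scaffold Sin3b at 72.2 ± 30.2 TPM. The CtBP genes Ctbp1 and Ctbp2, partners of Klf3, had means of 60.0 and 39.9 TPM. All 4 acetyltransferase genes lay above 1 TPM, also against 60.8% of genes. They were Crebbp at 76.9 ± 6.48, Kat2a at 32.4 ± 14.1, Ep300 at 23.5 ± 5.0 and Kat2b at 18.5 ± 6.16 TPM. Klf4 and Klf6 exceeded each of these partners in every library.

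Pathways known to induce members were also read from the table. Of 8 genes of the ERK5 and MEF2 route to Klf2 and Klf4, 6 lay above 1 TPM with limma, a share near the 60.8% of all genes tested. Mef2d (118 ± 7.93 TPM), Mef2a (82.4 ± 22.3 TPM) and Map3k3 (50.9 ± 19.8 TPM) were the highest. The ERK5 kinase Mapk7 had 15.04 ± 2.28 TPM, its activator Map2k5 had 0.89, 2.42 and 0 TPM and was undecided, and Mef2b was listed at 0. All 6 glucocorticoid genes lay above 1 TPM, against the same 60.8% of genes, with the receptor Nr3c1 at 108 ± 28.9 TPM. Among its targets, Sgk1 had 1862 ± 48.2 and Per1 48.1 ± 14.2 TPM. The other targets were lower, with Fkbp5 at 30.3, Tsc22d3 at 21.1 and Zbtb16 at 7.0 TPM on average. Klf9 and Klf15, induced by the same receptor elsewhere, lay at 189 and 4.19 TPM. All 9 TGF-beta and Smad genes lay above 10 TPM, against 38.2% of all genes tested. Smad4 (116 ± 12.6 TPM), Tgfbr1 (107 ± 15.2 TPM) and Tgfb2 (106 ± 42.4 TPM) were the highest, beside Klf10 at 44.8 TPM. Of 15 immediate-early genes, 13 lay above 100 TPM, against 9.54% of all genes tested, with a list median of 514 TPM. Egr1, Fosb and Zfp36 led it at 2326, 1655 and 1511 TPM, so Klf4 and Klf6 lay on either side of that median. No undissociated sample was measured, so levels before digestion are unknown.

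Genes known as targets or turnover enzymes of the family were mixed. Of 8 ubiquitin ligase genes that act on Krüppel-like factors, 6 lay above 1 TPM with limma, against 60.8% of all genes tested, led by Siah1a (89.3 ± 21.5 TPM), Smurf1 (66.3 ± 17.6 TPM) and Vhl (30.6 ± 9.10 TPM). Btrc had 6.85, 6.08 and 0 TPM and Siah1b had 6.35, 20.7 and 0.23 TPM, and both were undecided. Of 6 metabolic genes known as Klf15 targets, 3 lay above 1 TPM, also near that share: Bcat2 (19.6 ± 6.63 TPM), Prodh (13.3 ± 11.0 TPM) and Fbxo32 (9.77 ± 3.92 TPM). Gpt had 0, 9.40 and 0 TPM, and the glucose carrier Slc2a4 and the ligase Trim63 were listed at 0. Of 4 vascular targets of Klf2 and Klf4, 3 lay above 1 TPM, against the same 60.8% of genes. They were Thbd (59.7 ± 7.69 TPM), S1pr1 (18.2 ± 10.9 TPM) and Nos3 (5.66 ± 0.96 TPM). Edn1 had 1.16, 2.70 and 3.78 TPM and was undecided.

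All 4 growth genes lay above 10 TPM, against 38.2% of all genes tested. The cell cycle inhibitors Cdkn1a, a Klf4 and Klf6 target, and Cdkn1b had 300 ± 27.1 and 126 ± 17.04 TPM. Pdgfa had 81.8 ± 23.0 TPM. Among the 5 muscle partners and targets, Myod1 (1240 TPM), Myog (34.2 TPM) and Srf (32.2 TPM) lay above 1 TPM, against 60.8% of genes. The Klf2 and Klf4 target Npnt had 0, 1.65 and 10.04 TPM, and Ckm, a target of Klf3 with serum response factor, had 6.56, 0 and 21.6 TPM, and both were undecided. Of the 5 factors that accompany Klf4 in pluripotent cells, 2 lay above 1 TPM, against the same 60.8% of genes. They were Myc (1011 ± 69.4 TPM) and Nanog (13.0 ± 1.89 TPM), and Pou5f1, Sox2 and Esrrb were listed at 0. Nanog has close pseudogene copies, so its level is uncertain.

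Several members are also expressed by other cells of muscle, so markers of those cells are given beside them. All 12 satellite cell markers lay above 1 TPM with limma, against 60.8% of all genes tested, and summed to 7535, 7596 and 7109 TPM. Sdc4 (4135 TPM) and Myod1 (1240 TPM) carried most of these sums on average, while Pax7 averaged 51.4 TPM, Calcr 31.5 TPM and Pax3 11.8 TPM. The sums of the lists therefore do not measure the share of each cell type. Of 13 endothelial markers, 12 lay above 1 TPM, and the list summed to 255, 266 and 387 TPM. Pecam1 had 27.7, 32.5 and 61.2 TPM and Cdh5 34.8, 35.6 and 31.8 TPM, and Erg was at 0 in replicate 2. Beside them, Klf2 had 17.8, 30.3 and 6.87 TPM and Klf4 had 534, 690 and 684 TPM. Of 12 leukocyte markers in the table, 5 lay above 1 TPM, and the sums were 262, 380 and 297 TPM. Cd74 (134, 165 and 161 TPM) and Lyz2 (54.2, 86.4 and 69.6 TPM) carried most of these sums, and Cd3e was at 0 in all libraries. Fibro-adipogenic markers summed to between 2334 and 2716 TPM with 7 of 10 above 1 TPM, led by Gsn (888 TPM), Col3a1 (585 TPM) and Dpt (572 TPM) on average. Pdgfra, the surface receptor of these cells, had 4.98, 0.11 and 0.06 TPM. Mural markers summed to between 1637 and 1670 TPM with 6 of 10 above 1 TPM, and the list holds Des and Notch3, which satellite cells also express. Of its other genes, Acta2 (95.04 TPM), Tagln (84.0 TPM) and Rgs5 (64.4 TPM) were the highest on average, and Cnn1 had 0, 0 and 0.18 TPM. Of 6 erythroid markers, 2 lay above 1 TPM and the sums were 315, 139 and 453 TPM. Hba-a2 (167, 75.7 and 338 TPM) and Hbb-bs (148, 47.8 and 115 TPM), whose reads may be shared with near-identical globin genes, made up nearly all of them, while Alas2 and the erythroid factor Klf1 were at 0. Of 10 mature fibre markers, 4 lay above 1 TPM and the sums ran from 66.2 to 128 TPM, with Myh2 at 0. Beside the 60.8% of all genes, the endothelial count of 12 of 13 lay above that share. The fibro-adipogenic and mural counts were near it, and the leukocyte, erythroid and fibre counts lay below it. The part of these other cells in the levels of the members was not tested.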

How the data were processed

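Total RNA was isolated from the sorted cells with a Picopure kit and libraries followed Illumina protocols, per the labels. The submitters' processing notes name mm10, CASAVA 1.8, Bowtie 0.12.9 and RSEM 1.2.3. Their roles and settings, the strand and the annotation are not given by those sources. The authors deposited TPM for 3 libraries, renormalised without mitochondrial genes according to the table's name. TPM keeps no read totals, so depth is unknown, no counting interval is given, and a listed 0 may be an estimate that failed. The fits used limma 3.58.1 in R 4.3.3 on log2(TPM + 0.1), which understates folds of low genes. An intercept was tested against 1, 10 and 100 TPM, two-sided, with trended variances and p-values adjusted by Benjamini-Hochberg over 12822 genes (threshold 0.05). The fits were tested on simulated data drawn from the fitted model itself, so that test does not show that the model suits these libraries. Spread was tested over 11318 genes as the ratio of a gene's variance to the trended variance. Positions and 31-base words come from GENCODE M21 (GRCm38, the assembly of mm10), and promoters from RefSeq. Genes named are the members, all other Klf and Sp genes, the 3 highest, undecided and zero members of each pathway list, and the 3 genes nearest to Klf4. Ctbp1, Ctbp2, Kat2b, Mapk7, Fkbp5, Tsc22d3, Zbtb16 and the markers were named outside that rule. The subgroup shares were added after the values were seen. Members and lists were chosen with earlier results of these data known. Alternatives were 2 other pseudocounts, 2 filters, a common upper quartile, no variance trend, and leaving out each library.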

Additional observations from a re-analysis of the deposited data

How the results depend on the processing

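Of 270 member calls recomputed over 9 alternatives, 268 were kept, 0 were lost and 2 were gained, namely Klf15 above 1 TPM without replicate 1 and Klf2 above 10 TPM without replicate 3. The number of members above 1 TPM was therefore 9 to 10, above 10 TPM 4 to 5, and above 100 TPM 3 throughout. Both gained calls came from fits that left out a library, and adjusted p-values could fall sharply in such fits. For Klf10 against 1 TPM, the limma adjusted p was 3.3e-09 with all 3 libraries and 5.1e-89 without replicate 2. Calls kept or gained in those fits therefore say little about robustness. Counts over all genes on the low side moved. Genes below 1 TPM numbered 279, and 3 with a pseudocount of 0.01, 451 with a pseudocount of 1, 478 without a variance trend, 8056 with all genes of the table, 0 among genes that averaged 1 TPM or more, and 0 without any 1 of the 3 replicates. Genes below 10 TPM numbered 2245, and 831 with a pseudocount of 0.01, 9134 with all genes, 0 among genes that averaged 1 TPM or more and 0 without any 1 replicate. Genes below 100 TPM numbered 10906, and 16526 with all genes. The setting with all genes adds those listed at 0. The filter on averages takes out the genes that averaged under 1 TPM, which bears directly on the count below 1 TPM. For the other changes the cause was not tested. Genes with a spread above the trend numbered 2, and 0 with a pseudocount of 0.01 and 29 to 57 without 1 replicate. The calls of Sp6 and Sp9 below 1 TPM were lost with a pseudocount of 0.01 and without replicate 1 or 2. No paired analysis was possible because the 3 libraries form 1 group. Depth is unknown, so no detection limit can be given for the members listed at low values.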
